A study of Rattus norvegicus with 16 samples.

Results

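Untreated adult rat hearts collected on day 14 of a feeding study are compared here with untreated hearts collected on day 3. The comparison takes every array labelled as a control heart, 4 from day 14 and 4 from day 3, which makes 8 of the 16 arrays of the series. The study fed male RccHan Wistar rats, 7 to 8 weeks old, a diet with 3000 ppm phenformin or untreated food (0 ppm). Phenformin is a biguanide, a drug of the metformin class that lowers blood glucose. RNA came from a 30 mg piece of the apex of the left ventricle, and 300 ng of total RNA was labelled for an Affymetrix whole-transcript rat array. The 4 groups were control hearts at day 14, control hearts at day 3, phenformin hearts at day 14 and phenformin hearts at day 3, with 4 arrays each. The labels call the arrays biological replicates, and the protocol names 5 animals per group. The control rats of both days received no drug, so their hearts differ by 11 days of age and of time on untreated food, and by the day of necropsy, which cannot be told apart.

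At this age a male rat is still growing. Heart muscle cells in such animals enlarge but seldom divide, and the dividing cells of the ventricle are mostly fibroblasts, endothelial cells and blood-borne cells. Fibroblasts lay down the collagens and the other matrix proteins in which the muscle cells lie, and this deposition is strong during growth and slows in the mature heart. The mature ventricle draws most of its energy from fatty acids and has a dense population of mitochondria, which it renews through autophagy, the enclosure of worn parts in vesicles that fuse with lysosomes.

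Values are log2 of the deposited intensity, and a change is the day 14 mean minus the day 3 mean, with the standard error (SE) from limma and n = 4 arrays per day throughout. Of 22093 genes, 0 passed a Benjamini-Hochberg adjusted p under 0.05 in limma (0% of genes), and the smallest adjusted p was 0.0659, shared by 13 genes. At an unadjusted p under 0.05 stood 2091 genes, 9.46% of all, against 1105 that would reach it by chance. Over all genes, 54.3% had a change above 0 and 45.7% one below 0. Of the 2091, 1121 were higher on day 14 (5.07% of all genes) and 970 were lower (4.39%). The 4 arrays of one day lay wholly apart from the 4 of the other in 1028 genes (4.65%), 557 of them higher (2.52%) and 471 lower (2.13%) on day 14. At an adjusted p under 0.10, a threshold added after the data had been seen, stood 42 genes (0.190%), 22 higher (0.0996%) and 20 lower (0.0905%). The count of 0 depended on single arrays, since 24 genes passed an adjusted p under 0.05 without day 14 replicate 1 and 2 passed without day 3 replicate 2. It also depended on the genes tested, with 14 past the threshold when genes under the 25th percentile of mean level were dropped and 35 under the 50th. All genes and lists below are therefore given as values, and no single gene is called. A list is described by how many of its members reached an unadjusted p under 0.05, to be read against 5.07% and 4.39%, and by its median, to be read against a median of 0.014 over all genes.

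The piece of tissue was ventricle on both days. The 11 measured cardiomyocyte markers had a mean log2 intensity between 17.73 and 17.77 in the day 14 arrays and between 17.69 and 17.73 in the day 3 arrays. Of them, 3 were higher and 0 lower at an unadjusted p under 0.05, and the median change was -0.0043. In 3 the days did not overlap, all higher on day 14. Actc1, cardiac actin, stood at 19.84 to 19.85 on day 14 and 19.84 to 19.87 on day 3, close to the array maximum of 19.93. Array medians lay between 4.94 and 5.13 on day 14 and between 4.97 and 5.10 on day 3 (exact two-sided permutation test, p = 0.857, smallest possible 0.0286). Correlations over all genes were 0.9911 to 0.9946 between arrays of different days, 0.9923 to 0.9938 within day 14 and 0.9918 to 0.9946 within day 3. Arrays of one day were thus about as alike as arrays of different days. With 4 arrays a day, precision is limited by their number.

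Among the genes with the smallest p, those higher on day 14 included proteins of mitochondrial quality control, autophagy and amino acid breakdown. Clic5, a chloride intracellular channel protein, read 15.002, 14.96, 15.01 and 14.96 in the day 14 arrays and 14.63, 14.59, 14.55 and 14.65 in the day 3 arrays. The groups did not overlap, the spread within each day was small (SD 0.02 and 0.05), and the change was 0.38 (SE 0.06, adjusted p = 0.0659). Gabarapl1 encodes a protein of the ATG8 family that coats growing autophagosomes. Its values were 11.54, 11.61, 11.80 and 11.34 on day 14 and 10.94, 10.68, 10.91 and 10.94 on day 3, a change of 0.71 (SE 0.11, adjusted p = 0.0659) or 1.63-fold. Every day 14 array lay above every day 3 array, and day 3 replicate 2 lay below the other day 3 arrays. Pink1, the kinase that marks damaged mitochondria for removal, stood at 16.36, 16.41, 16.36 and 16.35 on day 14 and at 15.96, 16.14, 15.79 and 15.91 on day 3. The day 14 arrays were close together and above all day 3 arrays, with a change of 0.42 (SE 0.07, adjusted p = 0.0659). Pdk2, a kinase that holds pyruvate dehydrogenase inactive, had a change of 0.37 (SE 0.06), Prkce, protein kinase C epsilon, one of 0.39 (SE 0.07), and Tmtc1, an enzyme that adds mannose to cadherins, one of 0.49 (SE 0.09).

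The remaining genes of this kind also kept the days apart. Ivd, the isovaleryl-CoA dehydrogenase of leucine breakdown, read 13.83, 13.89, 13.89 and 13.92 on day 14 and 13.35, 13.55, 13.33 and 13.58 on day 3, a change of 0.43 (SE 0.08, adjusted p = 0.0659). Aldh2, the mitochondrial aldehyde dehydrogenase that clears acetaldehyde and lipid aldehydes, had 14.66, 14.54, 14.54 and 14.63 on day 14 and 14.17, 14.12, 14.11 and 14.30 on day 3. No day 3 value reached the lowest day 14 value of either gene, and the Aldh2 change was 0.42 (SE 0.07). Aldh4a1, which completes proline breakdown, had a change of 0.49, Lamtor1, which anchors the Ragulator complex to the lysosome, one of 0.40, and Slc25a21, a mitochondrial carrier of oxodicarboxylates, one of 0.72. A second, dimmer probe set had a change of 0.12 for Aldh4a1 and 0.095 for Slc25a21. Gstm6l, a glutathione S-transferase of the mu class, had a change of 0.64, but its sequence resembles that of other members of its class, so the array may mix them.

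**Figure D1:**
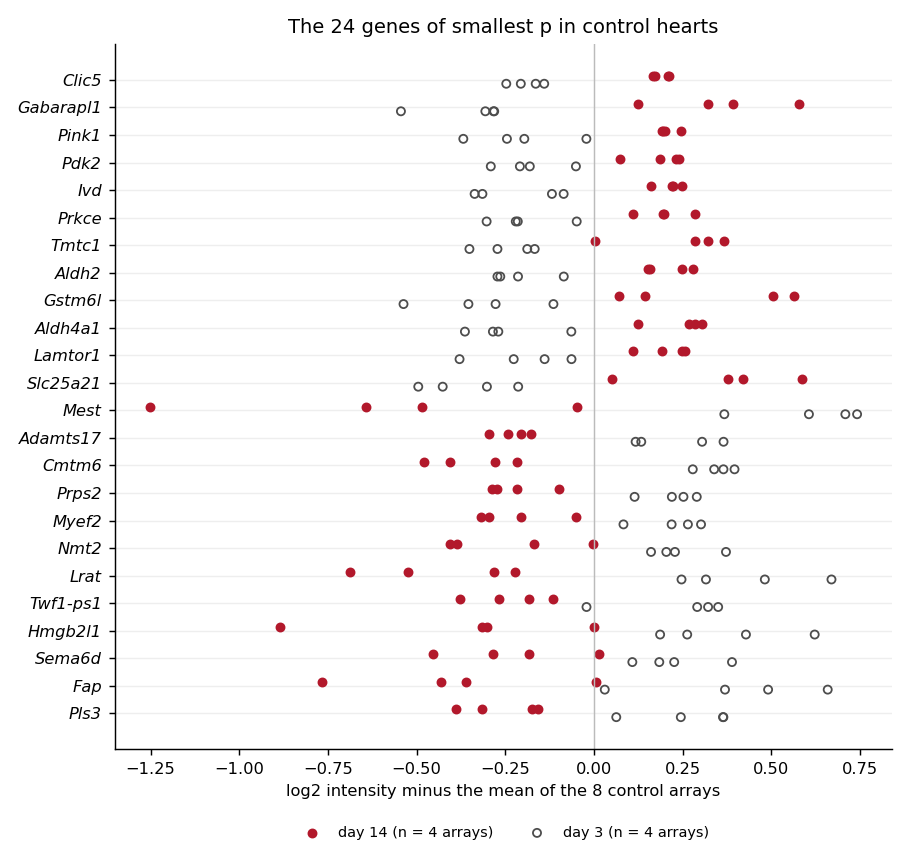
Log2 intensity of the 12 genes of smallest p higher on day 14 (Clic5 to Slc25a21) and the 12 lower (Mest to Pls3), each minus its mean over the 8 control arrays, with 1 point per array, filled for day 14 and open for day 3. In all 24 genes the arrays of the days do not overlap, which the choice by smallest p favours, and Mest spreads most on day 14.

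The genes of smallest p that were lower on day 14 included fetal, fibroblast and matrix-processing genes. Mest, an imprinted gene expressed from the paternal copy and strongest in fetal tissue, read 7.27, 6.07, 6.83 and 6.68 in the day 14 arrays and 7.92, 8.06, 8.03 and 7.69 in the day 3 arrays. The highest day 14 array, replicate 1, lay below every day 3 array, and the change was -1.21 (SE 0.19, adjusted p = 0.0659), or 0.432 of the day 3 level. Its second probe set had a change of -0.57. Fap, the serine protease called fibroblast activation protein, stood at 7.41, 6.63, 7.04 and 6.97 on day 14 and at 7.77, 8.06, 7.43 and 7.89 on day 3, with a change of -0.78 (SE 0.15, adjusted p = 0.0794). The days almost touched, since replicate 1 of day 14 and replicate 3 of day 3 were 7.41 and 7.43. Adamts17, a secreted metalloprotease, had a change of -0.46 (SE 0.08), and Lrat, which stores retinol as esters, one of -0.86 (SE 0.16).

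Further genes in this group act in membranes, the cytoskeleton and nucleotide supply. Cmtm6, a membrane protein that stabilises PD-L1, read 7.83, 7.70, 7.63 and 7.89 on day 14 and 8.45, 8.50, 8.47 and 8.39 on day 3, a change of -0.69 (SE 0.12, adjusted p = 0.0659). The gap between the days was wider than the spread within either. Prps2, which makes the ribose precursor of nucleotides, had a change of -0.44, Pls3, an actin-bundling plastin, one of -0.52, Sema6d, a semaphorin, one of -0.45, Nmt2, which attaches myristate to proteins, one of -0.48, and Myef2, a nucleic acid-binding repressor, one of -0.43. Twf1-ps1 (-0.47) and Hmgb2l1 (-0.75) resemble other genes closely, so their values may carry signal from those.

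The genes of cell division stood lower on day 14 as a list. Of 76 measured cell cycle and mitosis genes, 73 had a change below 0, 38 reached an unadjusted p under 0.05 with lower values and 1 with higher values (Aurka, 0.19), and in 12 the days did not overlap, all lower. The median change was -0.29. None reached an adjusted p under 0.10, and the smallest adjusted p was 0.15. Mki67, the Ki-67 antigen of dividing cells, read 9.10, 6.73, 8.24 and 8.41 in the day 14 arrays and 9.41, 9.57, 9.05 and 9.34 in the day 3 arrays. Replicate 2 of day 14 was far below the rest and replicate 1 lay inside the day 3 range, and the change was -1.22 (SE 0.39, adjusted p = 0.29). Top2a, the topoisomerase that untangles chromosomes, was also lowest in day 14 replicate 2, with 7.60, 5.87, 7.07 and 7.00 on day 14 and 7.75, 7.94, 7.44 and 7.73 on day 3 (change -0.83, SE 0.27, adjusted p = 0.304). Bub1, a kinase of the spindle checkpoint, had 6.64, 5.77, 6.39 and 6.14 on day 14 and 6.90, 7.01, 6.67 and 6.68 on day 3 without overlap (change -0.58, SE 0.14, adjusted p = 0.15). Ccnd1, the cyclin D1 that drives entry into the cycle, had a change of -0.58 (SE 0.14). Diaph3, a formin of the dividing cell, is not on the list and was named after its values were seen, with a change of -0.65 (SE 0.13, adjusted p = 0.0794).

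The promoters of this list are shown as a description of its members. The shares below would be the same whatever the values on either day, so they say nothing about the change. The element CCAAT is the site of the factor NF-Y, and TTTGAA is the cell cycle homology region bound by the MuvB complexes that switch mitotic genes on and off. Both were searched on both strands in the 250 bases before the start of each gene in the RefSeq promoter table of the GRCr8 build, where 63 of the 76 members had an entry. CCAAT stood in 44 of the 63 (69.8%), against 34.3% of all 27457 promoters, TTTGAA in 31 (49.2%) against 16.03%, and both in 27 (42.9%) against 5.76%. The GC box GGGCGG was also commoner in the list, at 63.5% against 32.4%. The 4 members of smallest p that hold both elements were Ect2, a regulator of cytokinesis (change -0.61), Mki67, Top2a and Fam83d, a spindle protein (-0.43). In the sequences, which run 5′ to 3′ up to the start of the gene, capitals mark CCAAT or TTTGAA and their reverse complements. In Mki67 the last TTTGAA and the last reverse CCAAT share a base. A match is a run of letters and no evidence of binding.
Ect2, chr2:111966627-111966876, minus strand: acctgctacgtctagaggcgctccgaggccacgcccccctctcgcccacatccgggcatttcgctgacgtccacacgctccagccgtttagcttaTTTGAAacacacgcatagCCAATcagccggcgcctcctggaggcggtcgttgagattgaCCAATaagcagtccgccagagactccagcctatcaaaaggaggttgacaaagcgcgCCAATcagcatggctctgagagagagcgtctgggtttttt
Mki67, chr1:199952594-199952843, minus strand: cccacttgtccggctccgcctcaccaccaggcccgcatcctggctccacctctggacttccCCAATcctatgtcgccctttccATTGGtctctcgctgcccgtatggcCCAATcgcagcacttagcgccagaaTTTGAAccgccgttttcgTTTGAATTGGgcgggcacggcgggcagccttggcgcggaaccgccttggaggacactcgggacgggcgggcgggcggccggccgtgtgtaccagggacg
Top2a, chr10:84473094-84473343, minus strand: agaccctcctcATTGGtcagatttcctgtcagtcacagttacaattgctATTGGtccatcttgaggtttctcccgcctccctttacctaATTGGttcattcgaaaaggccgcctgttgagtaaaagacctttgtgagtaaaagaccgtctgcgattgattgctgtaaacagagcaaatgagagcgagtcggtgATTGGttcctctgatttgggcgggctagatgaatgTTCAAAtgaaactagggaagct
Fam83d, chr3:167841542-167841791, plus strand: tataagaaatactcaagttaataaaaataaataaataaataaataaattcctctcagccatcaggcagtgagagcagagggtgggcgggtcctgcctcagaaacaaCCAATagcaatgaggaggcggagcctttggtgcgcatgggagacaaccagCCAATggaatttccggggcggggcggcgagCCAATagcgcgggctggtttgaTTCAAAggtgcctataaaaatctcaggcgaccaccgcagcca

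The list mean in each array shows how evenly the lower values were spread. Relative to the mean of the 8 control arrays, the cell cycle genes averaged 0.10, -0.51, -0.079 and -0.14 in the day 14 arrays and 0.20, 0.28, 0.042 and 0.11 in the day 3 arrays. Day 14 replicate 1 lay within the day 3 range and replicate 2 was the lowest. Without replicate 2 of day 14, 25 members reached an unadjusted p under 0.05 with lower values and the median was -0.19. Genes of DNA replication ran the same way with smaller changes, with 12 of 51 at an unadjusted p under 0.05, all lower, and a median of -0.13. Prim1, the small primase subunit, had 7.70, 7.33, 7.40 and 7.23 on day 14 and 8.00, 8.27, 7.86 and 7.92 on day 3, without overlap (change -0.59, SE 0.13, adjusted p = 0.138). Mcm4, a subunit of the replicative helicase, had a change of -0.52 (SE 0.12). Of 29 replication-dependent histone genes, 3 were lower and 0 higher at an unadjusted p under 0.05 (median -0.087). The histone values rested on single arrays, with 2 lower and a median of 0.0095 without day 14 replicate 2, and 8 lower and a median of -0.21 without day 14 replicate 1. Near-identical copies also make single histone genes uncertain.

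**Figure D2:**
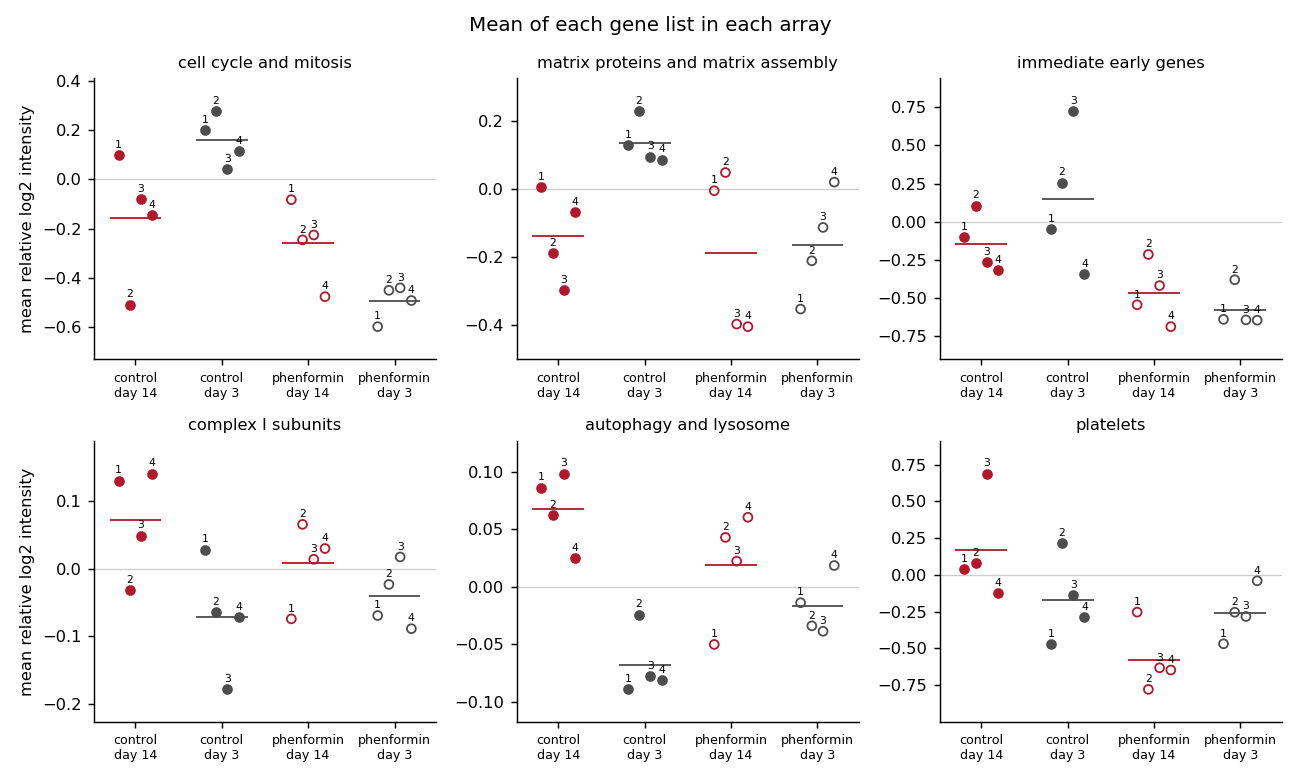
Mean log2 intensity of 6 gene lists in each of the 16 arrays, relative to the mean of the 8 control arrays, with the replicate number over each point and a bar at the group mean; control groups are filled, phenformin groups open, day 14 red and day 3 grey. Cell cycle genes spread widely on day 14 in control hearts (-0.51 to 0.10), while the autophagy list separates the control days (0.025 to 0.099 against -0.089 to -0.024).

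Genes of the extracellular matrix stood lower on day 14. Of 42 collagen genes, 40 had a change below 0, 12 reached an unadjusted p under 0.05 with lower values and 0 with higher values, and in 8 the days did not overlap. The collagen median was small, at -0.081. Of 58 non-collagen matrix genes, 19 were lower and 0 higher at that level, 12 without overlap, with a median of -0.20. Col3a1, which encodes type III collagen, read 13.89, 12.55, 13.10 and 13.50 in the day 14 arrays and 14.28, 14.50, 14.02 and 14.13 in the day 3 arrays. All day 14 values lay below all day 3 values, replicate 2 lowest (change -0.98, SE 0.23, adjusted p = 0.144), so the day 14 level was 0.508 of that on day 3. Col1a1, for type I collagen, had 12.57, 11.62, 11.70 and 12.41 on day 14 and 12.96, 13.12, 12.78 and 13.11 on day 3 (change -0.92, SE 0.23, adjusted p = 0.177). Postn, periostin of activated fibroblasts, had 7.91, 5.9998, 7.01 and 7.19 on day 14 and 8.65, 8.73, 7.97 and 8.21 on day 3 (change -1.36, SE 0.30, adjusted p = 0.137). In both genes the days stayed apart, with replicate 1 the highest day 14 array.

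Other matrix genes followed. Nid1, the basement membrane linker nidogen, had 14.60, 14.39, 14.28 and 14.08 on day 14 and 15.07, 14.98, 14.95 and 14.89 on day 3, a change of -0.63 (SE 0.17, adjusted p = 0.198) without overlap. Col5a1, a chain of the fibril-starting type V collagen, had a change of -0.48 (SE 0.12). Fn1, fibronectin, stood at 10.66, 10.18, 10.50 and 10.88 on day 14 and at 11.03, 12.17, 10.76 and 11.18 on day 3 (change -0.73, SE 0.24). Its days overlapped, since day 3 replicate 3 lay below day 14 replicate 4, and day 3 replicate 2 lay far above the rest. Several more were named after their values were seen. Vcan, the proteoglycan versican, had a change of -0.90, Fbn1, the microfibril protein fibrillin, one of -0.78, Col1a2 one of -0.64 and Col5a2 one of -0.46, each without overlap. The basement membrane collagens Col4a1 (-0.47) and Col4a2 (-0.39) overlapped between the days. Fstl1, a secreted glycoprotein related to follistatin, had 10.45, 9.81, 10.17 and 10.17 on day 14 and between 10.62 and 11.13 on day 3, a change of -0.76 (SE 0.17, adjusted p = 0.134).

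The fibroblast markers also leaned lower on day 14. Of 18 measured markers, 13 had a change below 0 and 5 one above 0. At an unadjusted p under 0.05, 7 were lower and 1 was higher, and the median was -0.29. However, Postn, Col1a1, Col1a2, Col3a1, Mfap4, Mfap5, Dcn, Lum and Fbln1 sit on both a matrix list and this list. Among markers that encode no matrix protein, Tcf21, a transcription factor of cardiac fibroblasts, had a change of -0.38, Vim, vimentin, one of -0.51 and Gsn, the actin-severing protein gelsolin, one of 0.45. These were chosen after their values were seen, and other such markers, among them Pdgfra and Ddr2, are not given. They therefore do not show how the non-matrix markers lean as a set. The mean of the 18 markers lay between -0.37 and 0.034 in day 14 arrays and between -0.0065 and 0.33 in day 3 arrays, so it overlapped, and its part in the matrix values was not tested. In tissue RNA, fewer cells of a type and less RNA per cell cannot be told apart. Without day 14 replicate 2, 8 collagen genes in place of 12 reached an unadjusted p under 0.05.

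**Figure D3:**
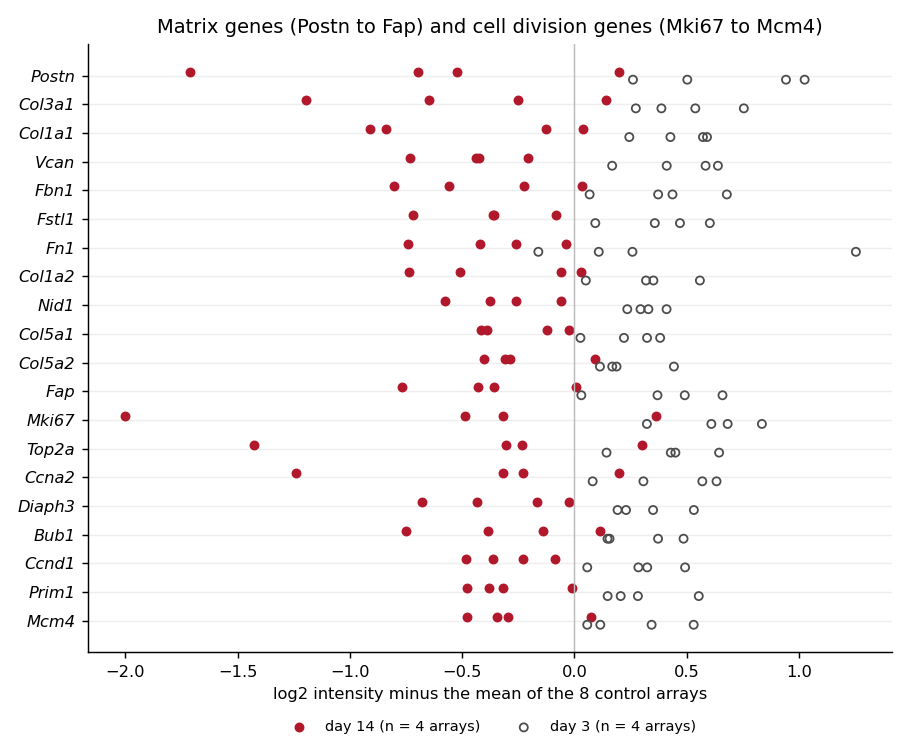
Log2 intensity of 12 matrix and fibroblast genes (Postn to Fap) and 8 cell division genes (Mki67 to Mcm4), each minus its mean over the 8 control arrays, with 1 point per array, filled for day 14 and open for day 3. Day 14 points lie to the left, furthest in day 14 replicate 2 for Mki67 and Postn, and the days overlap in Fn1, Mki67, Top2a, Ccna2 and Mcm4.

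Autophagy and lysosome genes stood higher on day 14. This list was drawn up after gene values had been seen, with Gabarapl1, Pink1 and Lamtor1 already in view, so its counts describe it and no more. Of 58 measured members, 43 had a change above 0 and 15 one below 0. At an unadjusted p under 0.05, 20 were higher and 0 lower, 13 without overlap between the days, and 6 stood at an adjusted p under 0.10. The median was 0.12. Map1lc3a, an LC3 protein that is joined to lipid on the autophagosome, read 9.63, 9.65, 9.46 and 9.60 in the day 14 arrays and 9.17, 9.25, 8.68 and 8.72 in the day 3 arrays, without overlap (change 0.63, SE 0.13, adjusted p = 0.0924; named after its values were seen). Map1lc3b, its close relative, had a change of 0.27, Gabarap one of 0.23, Sqstm1, the cargo receptor p62, one of 0.40, Atg13, a partner of the starting kinase, one of 0.38, and Ulk1, that kinase, one of 0.36. Gaa, the lysosomal enzyme that breaks down glycogen, had a change of 0.35 and Ctsd, the lysosomal protease cathepsin D, one of 0.21. The list averaged 0.086, 0.062, 0.099 and 0.025 in the day 14 arrays and -0.089, -0.024, -0.078 and -0.081 in the day 3 arrays relative to their common mean, and the days did not overlap.

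Promoters of this list were searched for the E-box CACGTG, the core of the site of TFEB and TFE3, factors that switch on lysosomal genes. It stood in 10 of the 50 members with a RefSeq promoter, against 5.79% of all 27457, while the GC box stood in 72.0% against 32.4%. Gabarapl1 and Map1lc3a are not among the sequences shown, which are those of the pair of E-box holders with the smallest p, Pink1 and Lamtor1. Capitals mark CACGTG, which reads the same on both strands, and the sequences are the 250 bases before the gene start in GRCr8, 5′ to 3′.
Pink1, chr5:155825951-155826200, minus strand: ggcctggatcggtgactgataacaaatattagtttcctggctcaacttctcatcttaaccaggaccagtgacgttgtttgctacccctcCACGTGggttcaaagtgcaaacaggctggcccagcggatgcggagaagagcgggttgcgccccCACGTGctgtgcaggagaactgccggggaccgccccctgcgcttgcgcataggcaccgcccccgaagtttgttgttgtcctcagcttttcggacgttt
Lamtor1, chr1:165683865-165684114, plus strand: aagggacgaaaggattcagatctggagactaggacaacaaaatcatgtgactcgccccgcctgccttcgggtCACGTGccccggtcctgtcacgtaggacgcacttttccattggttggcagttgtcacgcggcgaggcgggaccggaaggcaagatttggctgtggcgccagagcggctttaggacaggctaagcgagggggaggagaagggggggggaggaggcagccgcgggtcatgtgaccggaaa

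Genes of branched-chain amino acid breakdown stood higher on day 14, again on a list drawn up after gene values had been seen. Of 25 measured members, 10 were higher and 0 lower at an unadjusted p under 0.05, 8 without overlap, with a median of 0.17. Besides Ivd, Bckdha, a subunit of the dehydrogenase that commits the carbon chains to breakdown, read 9.15, 9.23, 9.04 and 9.06 on day 14 and 8.77, 8.80, 8.70 and 8.61 on day 3 (change 0.39, SE 0.08, adjusted p = 0.0883). Its days lay apart. Changes were 0.40 for Bcat2, the mitochondrial transaminase of the first step, 0.40 for Dbt, the core of the dehydrogenase, and 0.30 for Bckdhb, its other subunit. Mccc1, which carboxylates a leucine product, had a change of 0.31 and Hsd17b10, an enzyme of isoleucine breakdown, one of 0.30. The list averaged 0.035 to 0.11 in day 14 arrays and -0.11 to -0.051 in day 3 arrays, without overlap.

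Genes that handle peroxides and electrophiles also stood higher, while the aldehyde dehydrogenases as a list did not. Of 41 redox and detoxification genes, 38 had a change above 0, 13 were higher and 0 lower at an unadjusted p under 0.05, and 8 did not overlap (median 0.14). Nqo1, a quinone reductase and target of the factor NRF2, read 6.94, 7.10, 7.06 and 6.91 on day 14 and 6.65, 6.73, 6.68 and 6.57 on day 3, without overlap (change 0.34, SE 0.08, adjusted p = 0.138). Prdx6, a peroxiredoxin, had a change of 0.57, Gpx4, which reduces lipid peroxides, one of 0.30, Sod1, the cytosolic superoxide dismutase, one of 0.21, and Mgst1, a membrane-bound transferase, one of 0.64. The glutathione S-transferases of the mu class are a list drawn up after gene values had been seen. All 9 measured members had a change above 0, 7 at an unadjusted p under 0.05, with a median of 0.50. Gstm1 read 10.02, 10.16, 9.73 and 9.96 on day 14 and 9.16, 9.52, 9.33 and 9.70 on day 3 (change 0.54, SE 0.12, adjusted p = 0.144). The days were 0.03 apart at their closest. Gstm4 (0.88) and Gstm2 (0.85) had the largest changes of the class, with overlap. These paralogs are alike in sequence and may share probes, so they are not independent of each other, and some of them also sit on the redox list. Of 17 aldehyde dehydrogenases, a list also drawn up after gene values had been seen, 3 were higher and 0 lower at an unadjusted p under 0.05. Only 10 had a change above 0, and the median was 0.027, against 0.014 over all genes.

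**Figure D4:**
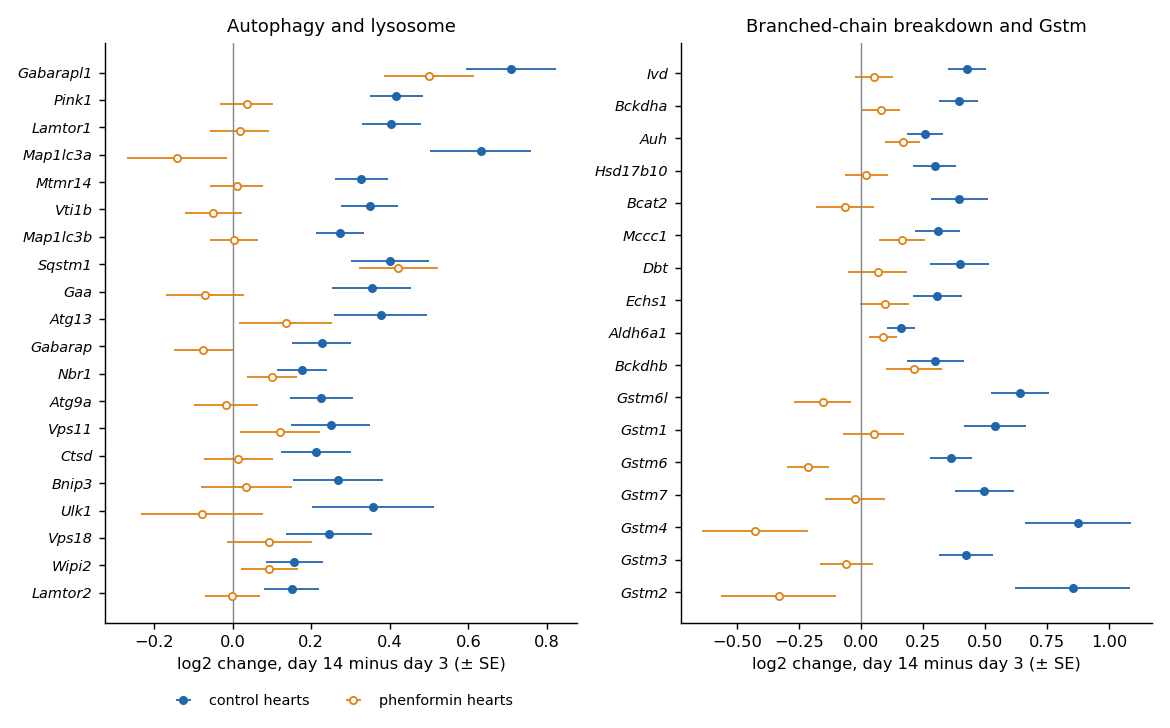
Log2 change from day 3 to day 14 with its SE for the autophagy and lysosome genes (left) and the branched-chain breakdown and mu-class glutathione S-transferase genes (right) at an unadjusted p under 0.05 in control hearts, the criterion by which they are drawn, in control hearts (filled) and phenformin hearts (open). Control values are all above 0, while in phenformin hearts Gabarapl1 (0.50) and Sqstm1 (0.42) stand highest on the left and every transferase drawn except Gstm1 lies below 0.

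Nuclear genes of the respiratory chain stood slightly higher on day 14. Of 35 complex I subunits, 34 had a change above 0, and 11 were higher and 0 lower at an unadjusted p under 0.05, with a median of 0.15. Ndufa2 read 9.70, 9.30, 9.58 and 9.57 on day 14 and 9.36, 9.22, 8.89 and 9.10 on day 3 (change 0.40, SE 0.11, adjusted p = 0.204). Day 14 replicate 2 fell within the day 3 range. Ndufb1 did not overlap (change 0.28, SE 0.09). Without day 3 replicate 3 the count of complex I genes was 6, and without day 14 replicate 4 it was 7. Of 46 subunits of complexes II to V, 8 were higher and 1 lower (median 0.069), led by Uqcr11l1 (0.25) and Cox8b (0.35), and of 70 mitochondrial ribosomal proteins 9 were higher and 0 lower (median 0.069), with Mrpl10 at 0.33 and Mrps23 at 0.29. Of 72 cytosolic ribosomal proteins, 60 had a change above 0 and 5 were higher at an unadjusted p under 0.05 (median 0.11). That count ranged from 0 to 19 with 1 array left out. It was 0 without day 14 replicate 1 (with 1 lower), day 14 replicate 4 or day 3 replicate 3, 2 without day 3 replicate 4, 12 without day 3 replicate 2, 17 without day 14 replicate 2 and 19 without day 14 replicate 3. For complexes II to V the higher count was 5 without day 14 replicate 1 or 4 and 14 without replicate 2.

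Among fuel genes, the glycolysis and fatty acid oxidation lists leaned higher, the second mostly by the sign of its changes. Of 36 genes of glycolysis and lactate, 9 were higher and 1 lower at an unadjusted p under 0.05, with a median of 0.084. Slc2a4, the insulin-responsive glucose transporter GLUT4, read 12.65, 12.74, 12.88 and 12.63 on day 14 and 12.54, 12.17, 12.14 and 12.23 on day 3, without overlap (change 0.46, SE 0.12, adjusted p = 0.204). Hk2, hexokinase 2, had a change of 0.51, Pdk1, a relative of Pdk2, one of 0.38, and Slc16a1, the lactate carrier MCT1, one of -0.22. Of 28 fatty acid oxidation genes, 25 had a change above 0 but only 3 reached an unadjusted p under 0.05 (median 0.12), among them Echs1 (0.31), the enoyl-CoA hydratase, and Acads (0.31), the short-chain acyl-CoA dehydrogenase. Without day 14 replicate 3 that count was 5, and without day 14 replicate 1 or 4 it was 2. The 22 citric acid cycle genes (median 0.029) and the 34 PPAR alpha targets (median 0.080) each had 1 higher and 1 lower. Pdk4, the pyruvate dehydrogenase kinase of fasting, gave no clear value, since day 3 replicate 3 stood at 16.91 and the other day 3 arrays between 13.22 and 14.07 (change -0.38, SE 0.77, and 0.45 without that array). Ppara, the fatty acid-sensing receptor, had a change of 0.32 (SE 0.11) and Ppargc1a, the coactivator PGC-1 alpha, one of 0.12 (SE 0.15). Of 31 genes of fatty acid and triglyceride synthesis, 2 were higher and 3 lower (median -0.011), with 5 lower without day 3 replicate 4. Their median changed sign to 0.029 without day 3 replicate 1 and to 0.036 without day 14 replicate 3. Of 20 genes of cholesterol synthesis and uptake, 1 was higher and 2 were lower (median 0.018), and 2 and 5 without day 3 replicate 4. In these lists, Pnpla2, the triglyceride lipase ATGL, had a change of 0.42, Elovl5, which lengthens fatty acids, one of -0.39, Sqle, squalene epoxidase, one of -0.42, and Fdft1, squalene synthase, one of 0.35, each without overlap.

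Contractile genes stood slightly higher on day 14. Of 34 sarcomere genes, 8 were higher and 0 lower at an unadjusted p under 0.05, with a median of 0.094, and 5 were higher without day 3 replicate 4. Trim54, a ligase of the muscle RING finger family, read 14.55, 14.88, 14.74 and 14.33 on day 14 and 14.21, 14.11, 13.95 and 13.62 on day 3, without overlap (change 0.66, SE 0.13, adjusted p = 0.0842). Mybpc3, cardiac myosin-binding protein C, had a change of 0.18 and Des, desmin, one of 0.13. Of 28 calcium-handling genes, 4 were higher and 0 lower (median 0.051, or -0.0079 without day 3 replicate 4), with Hrc, a calcium-binding protein of the sarcoplasmic reticulum, at 0.44 and Tmem38a, a potassium channel of that membrane, at 0.25, both without overlap. Atp2a2, the calcium pump SERCA2, stood at 19.05 to 19.09 on day 14 and 19.04 to 19.09 on day 3. Of 31 cardiac ion channel genes, 4 were higher and 2 lower at an unadjusted p under 0.05 (median 0.046). Over 21 alternatives the higher ones numbered 2 to 6 and the lower ones 0 to 3. The highest change was that of Scn4b, a sodium channel beta subunit. It read 9.46, 10.58, 10.13 and 10.33 on day 14 and 9.34, 8.79, 9.47 and 8.93 on day 3, an overlap of 0.01 (change 0.99, SE 0.27, adjusted p = 0.204).

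Fetal and stress genes of the heart showed no common direction. Of 34, 3 were higher and 3 lower at an unadjusted p under 0.05 (median 0.014). With 1 array left out the higher ones numbered 1 without day 14 replicate 1, day 14 replicate 2 or day 3 replicate 1. Without day 3 replicate 3, 5 were lower and the median was -0.0049. Besides Mest, Tpm2, beta tropomyosin, had 9.54, 9.05, 8.93 and 8.26 on day 14 and 10.38, 9.98, 9.59 and 10.26 on day 3, 0.05 apart at the closest (change -1.11, SE 0.33, adjusted p = 0.259). Acta1, skeletal actin, had a change of -0.68 (SE 0.30), with day 3 arrays at 18.28, 18.22, 16.53 and 17.39 spreading more than day 14 arrays at 17.26, 16.88, 16.57 and 16.97. The natriuretic peptide genes Nppa (-0.50, SE 0.42) and Nppb (0.22, SE 0.36) and the beta myosin gene Myh7 (0.38, SE 0.19) overlapped between the days.

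Genes that answer acute stimuli depended on single arrays. Of 46 immediate early genes, 7 were lower and 0 higher at an unadjusted p under 0.05, with a median of -0.28. Fos read 5.56, 6.80, 5.50 and 5.20 in the day 14 arrays and 7.19, 7.03, 9.29 and 5.98 in the day 3 arrays (change -1.60, SE 0.49, adjusted p = 0.268). Day 3 replicate 3 stood above all others, and it did so too for Egr1, at 11.32 against 7.77 to 8.81 in the other day 3 arrays and 7.17 to 9.58 on day 14. Without that array the list median was -0.048, and without day 3 replicate 4, the lowest of day 3 in this list, 18 genes in place of 7 were lower. Without day 14 replicate 2, 12 were lower. Klf6, an early zinc finger factor, was the single member without overlap (change -0.50, SE 0.11, adjusted p = 0.138).

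Clock and hormone-dependent genes were mixed and depended on single arrays. Of 26 clock genes, 4 were higher and 1 lower at an unadjusted p under 0.05, among them Nr1d1, the repressor REV-ERB alpha, with 7.55, 8.34, 6.73 and 8.33 on day 14 and 6.73, 6.56, 6.90 and 7.39 on day 3 (change 0.84, SE 0.34, adjusted p = 0.429). Its days overlapped, as did those of Per1 (-0.64, SE 0.36) and Dbp (-0.17, SE 0.21). The clock median was -0.047. Without day 3 replicate 4 the balance turned to 2 higher and 5 lower, without day 14 replicate 4 or day 3 replicate 2 it was 2 higher and 0 lower, without day 14 replicate 2 or day 3 replicate 1 it was 2 of each, and without day 14 replicate 3 it was 3 of each. Of 30 glucocorticoid targets, 2 were higher and 4 lower, with a median of -0.073. Without day 3 replicate 3 the counts were 5 higher and 3 lower and the median was 0.11. Without day 3 replicate 4, 9 were lower, and without day 14 replicate 4, 5 were higher and 3 lower. Zbtb16, a transcriptional repressor, had 10.97, 10.24, 10.82 and 9.11 on day 14 and 8.31, 8.85, 9.72 and 8.60 on day 3 (change 1.41, SE 0.43, adjusted p = 0.268), and Fkbp5, a cochaperone of the glucocorticoid receptor, had a change of 0.33 (SE 0.12), while Tsc22d3, another target, stood at 0.02 (SE 0.15).

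Growth genes held single members with lower values, and vessel genes leaned lower. Of 28 genes of the growth hormone and IGF axis, 1 was higher and 2 were lower at an unadjusted p under 0.05 (median 0.0044, or -0.040 to 0.052 with 1 array left out). The lower ones numbered 6 without day 14 replicate 1 and 5 without day 3 replicate 4. Igf1, the growth factor, read 10.01, 10.03, 9.82 and 10.38 on day 14 and 10.58, 10.93, 10.34 and 10.70 on day 3, with day 14 replicate 4 above the lowest day 3 array (change -0.57, SE 0.14, adjusted p = 0.174). Stc1, stanniocalcin 1, an inhibitor of the protease PAPP-A that frees IGF, had 8.00, 7.23, 7.97 and 7.85 on day 14 and 8.50, 8.89, 8.51 and 8.52 on day 3, without overlap (change -0.84, SE 0.18, adjusted p = 0.108). Ghr, the growth hormone receptor, and Igf1r, the IGF1 receptor, had changes of 0.13 (SE 0.10) and 0.05 (SE 0.12). Of 40 genes of angiogenesis and hypoxia, 26 had a change below 0, with a median of -0.090. At an unadjusted p under 0.05, 6 were lower and 2 higher, but 4 lower and 5 higher without day 14 replicate 4. In this list, Mcam, an adhesion molecule of vessel walls, had a change of -0.75 (SE 0.17, adjusted p = 0.144). Nrp2, a coreceptor of vascular growth factors, had one of -0.47 (SE 0.15).

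Few markers of other cells reached an unadjusted p under 0.05. Of 15 endothelial markers, 14 had a change below 0 and 2 were lower at an unadjusted p under 0.05 (median -0.18), led by Cdh5, the endothelial cadherin (-0.35, SE 0.13). The endothelial count was 0 lower and 1 higher without day 14 replicate 4, 4 lower without day 14 replicate 3 and 5 lower without day 14 replicate 1. Of 12 platelet transcripts, 11 had a change above 0 and 3 were higher (median 0.32), the largest median in size of the cell type lists. The platelet count was 1 without day 14 replicate 3, whose list mean of 0.69 was the highest of all control arrays, 1 without day 3 replicate 1 or 3, and 5 without day 3 replicate 2. With all arrays, none of 17 T and NK cell markers, 10 B and plasma cell markers or 13 neutrophil markers reached an unadjusted p under 0.05, and 1 of 20 macrophage and monocyte markers did (Ccr2, 0.61, SE 0.26, while 2 were lower and 0 higher without day 14 replicate 4). Of 45 interferon-stimulated genes, 0 reached it in either direction, and the median was 0.0064 (-0.063 to 0.090 with 1 array left out).

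The same 11 days passed in the phenformin hearts, whose arrays are other samples in the same limma fit. There 1 gene passed an adjusted p under 0.05 (0.00453%), and 1722 stood at an unadjusted p under 0.05 (7.79%), 822 higher (3.72%) and 900 lower (4.07%). The change in control hearts and the change in phenformin hearts had a Pearson r of 0.0328 and a Spearman rho of 0.0468 over 22093 genes, a description across genes, which are not independent and share probe sets and normalisation. Of the 2091 genes at an unadjusted p under 0.05 in controls, 1264 (60.4%) had the same sign in phenformin hearts, against 51.5% of all genes. Of the 42 genes at an adjusted p under 0.10, 29 had the same sign, but their median size in the control direction was 0.044 in phenformin hearts, against 0.48 in control hearts, where they were chosen. The difference between the day changes passed an adjusted p under 0.05 in 0 genes in limma (smallest 0.338), with 1546 at an unadjusted p under 0.05 (7.00%).

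Gene by gene, some control values were matched in phenformin hearts and others were not. Gabarapl1 had a change of 0.71 in control hearts and 0.50 (SE 0.11) in phenformin hearts, Trim54 0.66 and 0.51, and Nqo1 0.34 and 0.35. Clic5 had 0.38 in control hearts and -0.06 in phenformin hearts, a difference of 0.44 (SE 0.08, adjusted p = 0.338), and its phenformin arrays stood at 14.93 to 15.15 on day 14 and 14.98 to 15.14 on day 3, near the control level of day 14. Mest had -1.21 and -0.13, and its phenformin arrays read 6.42 to 6.96 on day 14 and 6.57 to 6.95 on day 3, also near control day 14. Pink1 had 0.42 and 0.04. For these genes it was the control day 3 arrays that stood apart from the other 12.

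The cell cycle list ran in opposite directions. Its median was -0.29 in control hearts and 0.19 in phenformin hearts, where 68 of 76 members had a change above 0 and 23 were higher and 1 lower at an unadjusted p under 0.05. The difference between the day changes reached an unadjusted p under 0.05 in 45 members, all toward lower values in controls, but none after adjustment. Mki67 in phenformin hearts read 8.66, 8.03, 8.14 and 6.89 on day 14 and 6.49, 6.54, 6.75 and 6.61 on day 3, so the change was 1.33, and the difference from controls was -2.56 (SE 0.55, adjusted p = 0.353). The phenformin day 3 arrays were the lowest of the 4 groups in the list mean (-0.60 to -0.44). The matrix list had a median of -0.20 in control hearts and -0.015 in phenformin hearts, the autophagy list 0.12 and 0.020, the mu-class transferases 0.50 and -0.15, and the platelet transcripts 0.32 and -0.29. Fatty acid oxidation (0.12 and 0.12) and redox genes (0.14 and 0.12) had close medians in both.

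**Figure D5:**
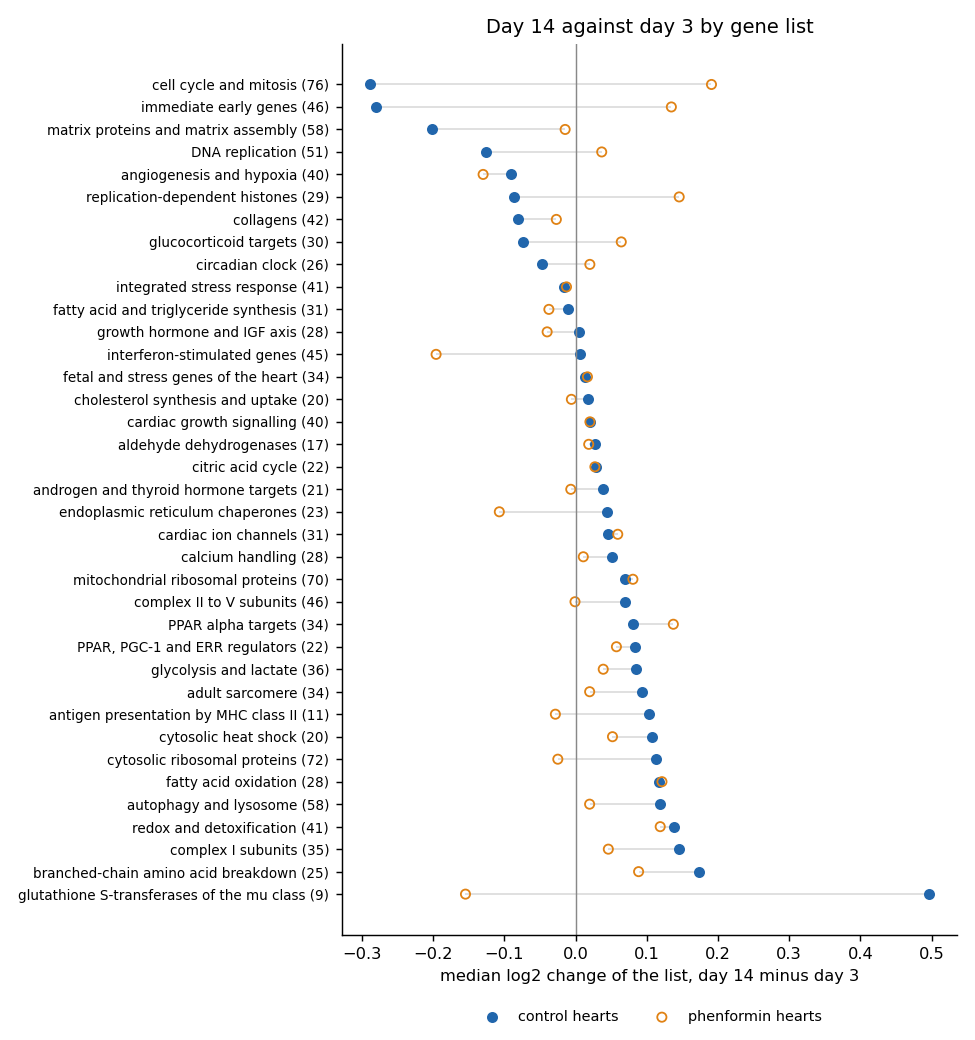
Median log2 change from day 3 to day 14 for 37 gene lists, with the number of measured genes in brackets, in control hearts (filled) and phenformin hearts (open), ordered by the control value. Cell cycle, immediate early and matrix genes lie lowest in control hearts (-0.29, -0.28 and -0.20), and the first of these stands at 0.19 in phenformin hearts.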

How the data were processed

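Gene expression in the apex of the left ventricle was measured on 16 arrays. The authors deposited 1 linear intensity per array for each of 68842 probe sets. Per the submitters' processing notes, RMA made these values, with no version named. RMA corrects background, equalises the distributions of the arrays and sums up the probes of a set. The deposited values still differed in distribution between arrays. The 99th percentile of log2 intensity ran from 16.93 to 17.33 in the control arrays of day 14 and from 17.03 to 17.49 in those of day 3. The difference of -0.153 between these days had a p of 0.314 in the exact two-sided permutation test. The step back to a linear scale and the genome build of the probe sets are not given in the sources used here. A fold is therefore one on the deposited scale. The log2 of each value was taken with no further normalisation or filter. The platform annotation gave 1 symbol to 23446 probe sets, several to 505 and none to 44891, which are unnamed here. The brightest probe set with 1 symbol stood for each gene, giving 22093 genes, of which 1182 had several such probe sets. Of 22246 probe sets with a gene ID, 22077 matched RefSeq genes. No gene coordinates are given, apart from promoters taken from the RefSeq table of GRCr8.

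The gene test was that of limma 3.58.1 under R 4.3.3, on files read with version 1.17.8 of data.table, as 1 mean per group over all 16 arrays (12 residual degrees of freedom) with a mean-variance trend. P-values are two-sided, with Benjamini-Hochberg adjustment over all genes and a threshold of 0.05. Where the arrays are not from separate animals, p-values would measure technical spread only. The test was tested on simulated data.

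The comparison, the gene lists and the naming rule were chosen with earlier results of these data known, and 4 lists (autophagy and lysosome, branched-chain amino acid breakdown, aldehyde dehydrogenases, mu-class glutathione S-transferases) were drawn up after gene values had been seen. No list was tested. The rule asked first for genes past the test with arrays that did not overlap, leaving out provisional symbols. None passed, so it named the 12 genes of smallest p in each direction, with no condition on overlap. It also named the 2 members of smallest p in each list (3 where members pass, which none did) and a fixed set, 155 genes in all. Of the fixed set, Myh6 and Hmgcs1 were not measured by a probe set with 1 symbol. Genes named outside the rule were chosen after their values were seen. They are those given for a list beyond its 2 of smallest p, and Npy, Alox15, Pi15 and Diaph3, which are on no list. Alternatives changed the filter on dim genes, the normalisation, the moderation, the samples in the fit, the probe sets of a gene, the threshold and the scale, added the replicate number as a block, and left out each control array.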

Additional observations from a re-analysis of the deposited data

Results flagged for a closer look

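In 8 of 336 groups of 4 control arrays examined over 168 named genes, 1 array lay apart from the other 3 by Dixon's criterion, which chance meets in about 1 in 20 groups. Gabarapl1 was low in day 3 replicate 2, at 10.675, against 10.91 to 10.94 in the other day 3 arrays. Twf1-ps1 was low in day 3 replicate 4, at 8.2539. Stc1 was high in day 3 replicate 2, at 8.8888, against 8.50 to 8.52 in the others. Nr1d2 was high in day 3 replicate 3, at 10.237, against 9.48 to 9.56. On day 14, Echs1 was high in replicate 3, at 16.086, and Ndufb1 in replicate 2, at 9.9382. Ccl5 was low in day 14 replicate 3, at 6.5375, and Ankrd1 in replicate 4, at 18.918. No array accounted for more than 2 of the 8.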

How the results depend on the processing

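The count of genes past an adjusted p under 0.05 in control hearts was 0 in limma (smallest adjusted p 0.0659, 2091 genes at an unadjusted p under 0.05). It was also 0 with arrays normalised by quantiles again, with aligned medians (smallest adjusted p 0.311, 1556 at an unadjusted p under 0.05), normal scores, no variance trend, robust moderation, array weights, only the 8 control arrays, the mean of a gene's probe sets, all probe sets, without genes above a log2 of 16, and with a stricter p or a fold limit. It was 14 without genes under the 25th percentile of mean level and 35 without those under the 50th, where fewer genes were tested. Leaving out 1 array gave 0 to 24 genes, with 24 without day 14 replicate 1, 2 without day 3 replicate 2 and 0 without any other. Alternatives chosen after seeing the data gave 42 at an adjusted p under 0.10, and 0 (1692 at an unadjusted p under 0.05) without both day 14 replicate 2 and day 3 replicate 3. The difference from the phenformin day change gave 0 to 1 genes with 1 control array left out, the 1 without day 3 replicate 2, and 0 otherwise. The single phenformin gene was lost, leaving 0, with aligned medians, the replicate block, all probe sets or an adjusted p under 0.01. The cause of these shifts was not tested where it is not named.

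With the replicate block the control count was 0, with 2043 genes at an unadjusted p under 0.05. With group means taken out, same-numbered arrays of the control days correlated at -0.0841, -0.13, 0.087 and 0.144. The highest correlation with a differently numbered day 3 array was 0.328, 0.138, 0.085 and 0.0313. So few values cannot show whether the number marks a pairing or a batch, and the main test did not use it.

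Of the values of named genes and lists under alternatives, 4736 kept their direction and side of the threshold or, for list medians, moved by less than the spread, 56 gene values came to lie past the threshold, 35 list medians moved by more than the spread, and 25 gene values changed sign. The gene values under alternatives are those of 168 named genes. Other genes given in the text, such as Sqstm1, Vim, Hk2 and Gstm4, were not examined one by one under them. The sign changes of gene values were all in the genes given next, none with a change over 0.38 in size. Of 54 list medians, which have no threshold, 21 also changed sign with 1 control array left out. In any alternative other than normal scores, for which list signs were not counted, 22 did so, none over 0.101 in size. Normalised by quantiles again, Idh3a stood at 0.031 and Actc1 at 0.0089, and on normal scores at 0.0023 and 0.024. With 1 array left out, ranges were -0.42 to 0.48 for Alas2 (-0.42, -0.17 and -0.018 reversed), -0.065 to 0.17 for Ankrd1, -0.66 to 0.028 for Atf3, -0.014 to 0.0015 for Atp2a2 (0.00083 also reversed), -0.012 to 0.10 for Bmal1, -0.16 to 0.020 for Ccnb1, -0.087 to 0.14 for Igf1r, -0.12 to 0.10 for Igf2 (0.08 also reversed), -0.034 to 0.41 for Nppb, -0.78 to 0.45 for Pdk4 and -0.12 to 0.13 for Tsc22d3 (-0.08 and -0.066 also reversed). Without both arrays, Ccnb1 stood at 0.049, Igf1r at -0.065, Atf3 at 0.00833 and Pdk4 at 0.77. Over 21 alternatives, lower cell cycle genes at an unadjusted p under 0.05 numbered 14 to 47, lower matrix genes 13 to 22, higher autophagy genes 12 to 22 and higher complex I genes 6 to 14. The 160 genes above a mean log2 of 16 lie in the upper range of the deposited scale, and whether their signal was compressed there was not tested.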

Other observations

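The genes with the highest and the lowest change of all genes, and 1 gene more, are outside the lists and were chosen after their values were seen. Npy, neuropeptide Y of sympathetic nerves, had the highest change, with 9.73, 9.81, 11.40 and 8.88 in the day 14 arrays and 7.59, 9.71, 8.15 and 7.91 in the day 3 arrays (change 1.61, SE 0.49, adjusted p = 0.268 in limma). The days overlapped through day 3 replicate 2, and a second probe set had a change of 1.45. In phenformin hearts the Npy change was -0.96 (SE 0.49). Alox15, a lipoxygenase of macrophages and eosinophils, had the lowest change, with 8.23, 7.23, 8.46 and 8.08 on day 14 and 9.03, 9.75, 9.78 and 9.97 on day 3 (change -1.63, SE 0.40, adjusted p = 0.171), without overlap. In phenformin hearts it had a change of -1.23 (SE 0.40). Pi15, a secreted peptidase inhibitor, had 7.75, 7.41, 7.39 and 7.93 on day 14 and 8.67, 8.53, 9.13 and 8.11 on day 3 (change -0.99, SE 0.23, adjusted p = 0.158).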
